A study of Homo sapiens with 12 samples.

Results

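The solute carrier genes (SLC genes) expressed in doxorubicin-treated IMR90 fibroblasts are described here by family and by the substrate they carry. Members were chosen by symbol and by measured level, as the protein-coding genes whose symbol has the form of an SLC family number, a letter and a member number. The mitochondrial SLC25 family and SLC7A11 were left out, and a member needed expected counts that summed to 200 or more over the 12 libraries. Of 326 genes with such a symbol, 126 met the minimum, out of 61541 gene identifiers in the files. Among the 200 below it, 60 had no count in any library. Just inside were SLC17A9 with a total of 213, SLC27A1 with 216 and SLC24A5 with 217 counts, and just outside were SLC35G2 with 172, SLC38A4 with 174 and SLC39A3 with 196 counts. The minimum uses the level over all libraries, so the presence of a gene among the members is not a result.

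Bulk RNA sequencing of polyadenylated RNA was done on IMR90, a line of normal human lung fibroblasts labelled wild type, in 4 groups of 3 libraries. The groups were a 2 kPa gel with 250 nM doxorubicin, plastic with 250 nM, the gel with 100 nM and plastic with 100 nM. Every library came from cells given doxorubicin for 24 h and kept for at least 8 days afterwards, and untreated or quiescent cells were not analysed here. Doxorubicin is a DNA-damaging anthracycline used to bring fibroblasts into senescence, a lasting arrest of division with a changed secretion, and the gel is far softer than plastic. The question the design names is how the substrate under the cells bears on that state. The titles give the doses in nM where the treatment text gives µM, and the design calls the soft substrate a hydrogel where the growth text speaks of PDMS-coated plates. All libraries came from the same cell line, and nothing in the labels says that they were separate cultures, so p-values measure the spread between these samples, which may be technical.

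Solute carriers are membrane proteins that move nutrients, ions, metals and metabolites into and out of cells and organelles. Many are driven by the sodium gradient that the sodium pump maintains, some work as exchangers and some, such as the glucose transporters of the SLC2 family, let their substrate down its own gradient. In fibroblasts they supply glucose and amino acids for matrix synthesis, export lactate, and bring nucleotide sugars into the Golgi for glycosylation.

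Total counts ran between 2229069 and 2730309 per library at 250 nM and between 5887056 and 7351916 at 100 nM, so that counting error weighs more on the 250 nM values. Dose cannot be told apart from this difference in depth and in library set, since a tag for molecular identifiers stands in the file names of 250 nM alone. Ribosomal DNA loci took 13.2% of counts in replicate 1 of gel at 250 nM and 14.3% in replicate 1 of plastic at 100 nM, against 24.2% to 30.7% elsewhere, and these 2 libraries stood apart. The library of gel at 250 nM held the highest value of all 12 libraries for 29 members and the lowest for 25, and the library of plastic at 100 nM held the highest for 21. Each of the 10 fibroblast markers listed had a mean of at least 1 TPM. They summed to 3770 to 4267 TPM on gel and 4677 to 5261 TPM on plastic at 250 nM. At 100 nM the sums were 3940 to 5401 TPM on gel and 4823 to 5647 TPM on plastic. FN1 and VIM, which averaged 2698 and 1178 TPM, made up most of these sums and overlapped between the substrates, as did THY1 and PDGFRA. COL1A1, COL1A2, COL3A1, DCN, LUM and PDGFRB were lower in every gel library than in any plastic library of the same dose. DCN had 63.7, 127 and 72.4 TPM on gel and 406, 494 and 462 TPM on plastic at 100 nM. Among leukocyte markers 7 of 8 were below 1 TPM and 3 were at 0, and 7 of 8 endothelial, 6 of 10 epithelial and 4 of 8 pericyte and smooth muscle markers were below 1 TPM. The epithelial keratins KRT18, KRT19 and KRT8 averaged 49.1, 23.2 and 19.4 TPM, while KRT5, SFTPC and SCGB1A1 were at 0. Epithelial markers summed to 102 to 112 TPM on gel and 77.2 to 162 TPM on plastic at 250 nM, and to 37.2 to 96.5 TPM on gel and 50.1 to 86.4 TPM on plastic at 100 nM. Pericyte and smooth muscle markers summed to 21.8 to 33.0 TPM on gel and 32.4 to 36.6 TPM on plastic at 250 nM, and to 21.6 to 32.5 TPM on gel and 20.2 to 23.9 TPM on plastic at 100 nM. The part of these levels in the results was not tested. In bulk RNA, fewer cells of a type and less RNA per cell cannot be told apart.

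The members fell into 42 families, of which SLC35 with 22, SLC39 with 8 and SLC2, SLC16 and SLC38 with 7 members each were the most numerous. By substrate, 25 members carry amino acids and peptides, 24 carry nucleosides, nucleotide sugars or acetyl-CoA, 21 carry metals and heme, 16 carry inorganic ions, 9 carry monocarboxylates, bile acids or fatty acids and 8 carry sugars. Smaller classes were vitamins and choline with 7, organic ions, urea and vesicular substrates with 7, osmolytes with 4 and phosphate with 2 members. Classes were given by family, apart from genes placed by their own substrate, such as SLC2A13, SLC5A3, SLC6A6 and SLC6A8 with the osmolytes and SLC5A6 with the vitamins. SLC43A3, known as a purine nucleobase carrier, was left with its family among the amino acid carriers, and SLC35F3, reported to carry thiamine, with its family among the nucleotide sugar carriers. SLC10A7 was put in no class. SLC2A4RG, a regulator of SLC2A4 transcription, and SLC4A1AP, a protein that binds an anion exchanger, match the symbol form but are no carriers, and 124 members remain without them.

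The proximal promoters of SLC20A1, SLC2A1 and SLC38A2 are shown because these were the 3 most abundant of the 8 members whose gel and plastic libraries did not overlap at either dose and moved the same way. SLC20A1 (ENSG00000144136) is at chr2:112645857-112663827 on the plus strand of GRCh38 in GENCODE 29. SLC2A1 (ENSG00000117394) is at chr1:42925375-42959176 and SLC38A2 (ENSG00000134294) at chr12:46358189-46372867, both on the minus strand. The 250 bases before the annotated start, from RefSeq on GRCh38.p14, run at chr2:112645689-112645938 for SLC20A1, chr1:42958869-42959118 for SLC2A1 and chr12:46372774-46373023 for SLC38A2. The RefSeq starts differ from those of GENCODE. By the GENCODE coordinates the stretch of SLC2A1 lies within the gene, and those of SLC20A1 and SLC38A2 reach into their genes. They are written on the strand of the gene, with capitals marking the motifs found.
SLC20A1: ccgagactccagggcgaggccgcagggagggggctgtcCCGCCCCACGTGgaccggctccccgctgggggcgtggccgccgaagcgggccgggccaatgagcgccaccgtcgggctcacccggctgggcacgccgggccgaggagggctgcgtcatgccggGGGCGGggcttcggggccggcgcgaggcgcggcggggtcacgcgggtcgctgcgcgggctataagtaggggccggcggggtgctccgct
SLC2A1: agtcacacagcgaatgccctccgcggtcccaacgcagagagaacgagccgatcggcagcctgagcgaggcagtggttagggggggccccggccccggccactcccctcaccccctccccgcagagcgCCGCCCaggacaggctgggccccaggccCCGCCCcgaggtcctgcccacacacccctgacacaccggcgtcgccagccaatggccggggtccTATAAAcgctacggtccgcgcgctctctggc
SLC38A2: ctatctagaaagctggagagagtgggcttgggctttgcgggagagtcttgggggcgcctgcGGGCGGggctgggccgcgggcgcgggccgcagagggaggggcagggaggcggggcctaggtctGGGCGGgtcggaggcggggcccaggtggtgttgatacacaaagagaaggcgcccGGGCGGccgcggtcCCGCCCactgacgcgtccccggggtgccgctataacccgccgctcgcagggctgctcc
Searched on both strands were the GC box GGGCGG, the E-box CACGTG, the TATA box TATAAA, the AP-1 site TGANTCA, the cAMP response element TGACGTCA and the amino acid response element TGATGNAA. SLC20A1 held GC boxes starting 212 and 89 bases before the start and an E-box at 206 bases, which abuts the first GC box. SLC2A1 held GC boxes at 123 and 95 bases and a TATA box at 31 bases, and SLC38A2 held GC boxes at 189, 126, 72 and 58 bases before the start. Over all 27305 promoters of the same length in the table, 42.3% held a GC box, 6.49% an E-box, 11.1% a TATA box, 6.60% an AP-1 site, 1.77% a cAMP response element and 3.19% an amino acid response element. Promoters of 103 members were in the table, and 70.9% of them held a GC box. An E-box was held by 9.71%, a TATA box by 3.88%, an AP-1 site by 3.88%, a cAMP response element by 1.94% and an amino acid response element by 0%. Members were chosen by their level, while all promoters include those of genes without counts here, so these shares are not a result about carriers. The GC content was 80% for SLC20A1, 72.4% for SLC2A1 and 73.6% for SLC38A2, against a median of 58.0% over all promoters. A match in these letters describes the sequence and does not show that a factor binds there.

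Levels between genes are compared as TPM, a share of transcripts that allows for transcript length. A small number of carriers made up much of the solute carrier RNA. SLC16A3, the lactate exporter of glycolytic cells, averaged 371 TPM over the 12 libraries and made up 15.6% of the summed member TPM. Its first place rests on the allowance for transcript length, since it had 9781 counts in all, against 40823 for SLC38A2 and 26735 for SLC20A1. SLC20A1, a sodium-dependent importer of inorganic phosphate, averaged 239.6 TPM or 10.1%, and SLC38A2, which brings in neutral amino acids with sodium, averaged 175 TPM or 7.32%. These 3 genes were the members at 100 TPM or more and together held 32.9%, while 47 members averaged 10 to 100 TPM and 76 stood below 10 TPM, with a median of 7.12 TPM. Next came SLC39A7, a zinc channel of the endoplasmic reticulum, at 95.2 TPM and SLC2A1, the main basal glucose transporter of many cell types, at 93.0 TPM. The order at the top differed between groups, since SLC38A2 ranked 1 on plastic at 250 nM, where SLC16A3 ranked 2, and SLC16A3 ranked 1 in the other groups. SLC20A1 ranked 2 on gel and 3 on plastic at 250 nM, and 2 on gel and 4 on plastic at 100 nM.

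Among amino acid carriers SLC38A1, also a sodium-coupled neutral amino acid importer, averaged 53.9 TPM and SLC3A2, the heavy chain that pairs with exchangers such as SLC7A5, averaged 45.2 TPM. The zinc carriers SLC39A13 and SLC39A6 averaged 67.6 and 61.5 TPM. Among nucleotide sugar carriers SLC35E1, whose substrate is not settled, averaged 66.1 TPM and SLC35B1, which brings ATP into the endoplasmic reticulum, 35.7 TPM. SLC4A2, an exchanger of chloride for bicarbonate, led the inorganic ion carriers at 30.9 TPM, and SLC52A2, a riboflavin importer, led the vitamin carriers at 33.0 TPM. In counts SLC4A2 had 567 in all, against 4972 for SLC4A7 of its class, and CDK5 lies on the opposite strand of the SLC4A2 locus with 403 counts. SLC17A5, which exports sialic acid from lysosomes, averaged 29.9 TPM and SLC5A3, a sodium-coupled myo-inositol importer, 10.1 TPM.

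Gel against plastic gave few differences among the carriers, and those called were rises on gel. Values per gene are CPM, counts scaled to the library size after TMM, and a gene was called where the adjusted p of edgeR's quasi-likelihood test was under 0.05 over all 12329 genes tested, of which all 126 members were part. Over both doses 3 members were called (2.38%), which were SLC20A1, SLC6A15 and SLC16A6, and the same 3 were called at 100 nM. The background is that 0.754% of all tested genes were called over both doses and 0.276% were called as higher on gel. At 100 nM the background was 0.227% called and 0.0730% called as higher on gel. No member was called at 250 nM, where 0.00811% of tested genes, a lone gene, was called, and 13 members (10.3%) against 10.0% of all genes had an unadjusted p under 0.05. At 100 nM 18 members (14.3%) had such a p, against 9.90% of all genes, and over both doses 18 members did, against 12.5%. Gel and plastic did not overlap at 250 nM for 9 members higher on gel (7.14%, against 7.45% of all genes) and 11 lower (8.73%, against 7.62%). At 100 nM they did not overlap for 16 members higher on gel (12.7%, against 9.62%) and 10 lower (7.94%, against 9.38%). The numbers of members called were the same without the 2 libraries that stood apart, at 3, 0 and 3 for 100 nM, 250 nM and both doses. Under DESeq2 the numbers were 3, 1 and 7. The share of all genes called in these other settings is not given here, so their counts are not a result about the carriers alone.

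**Figure D1:**
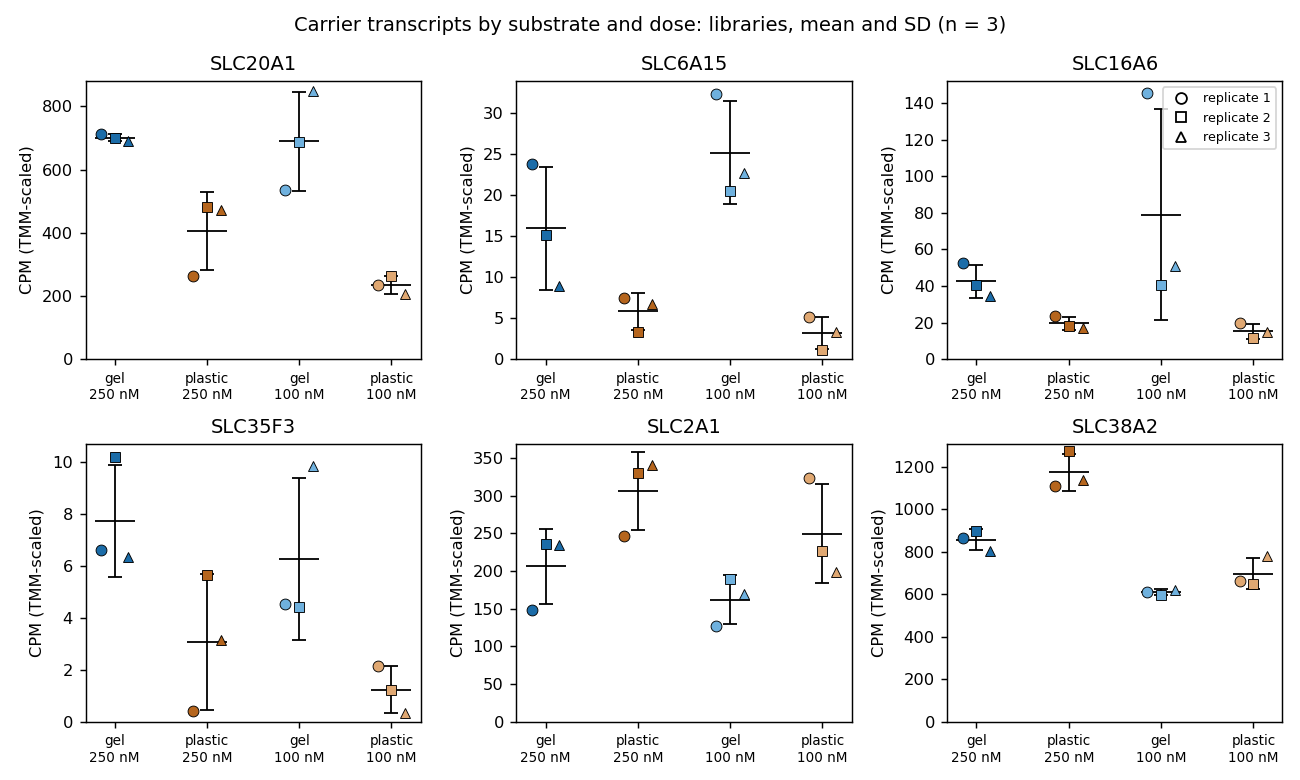
CPM of 6 SLC genes in each library, grouped as gel and plastic at 250 nM and gel and plastic at 100 nM, with the group mean and SD (n = 3). Marker shapes give the replicate number, which is not known to pair samples. SLC20A1, SLC6A15, SLC16A6 and SLC35F3 stood higher in every gel library than in any plastic library of the same dose, and SLC2A1 and SLC38A2 stood lower.

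SLC20A1, the phosphate importer, had 712, 699 and 691 CPM on gel and 262, 483 and 472 CPM on plastic at 250 nM. At 100 nM it had 535, 686 and 848 CPM on gel and 233, 263 and 207 CPM on plastic. Every gel library was above every plastic library at either dose, and the gap was wider at 100 nM. The difference was 1.17 ± 0.17 (log2, SE) over both doses, a fold of 2.26 (edgeR adjusted p = 0.00583), with 1.56 ± 0.24 at 100 nM (adjusted p = 0.0229) and 0.79 ± 0.24 at 250 nM (adjusted p = 0.301). The call over both doses held in 22 of 22 ways of processing, with log2 values of 1.05 to 1.25. In TPM the means were 283 ± 9.40 on gel and 180 ± 24.5 on plastic at 250 nM, and 383 ± 64.6 on gel and 112 ± 11.3 on plastic at 100 nM (SD, n = 3). The other phosphate importer of the family, SLC20A2, went the other way without a call. It had 7.60, 13.6 and 8.01 CPM on gel and 20.3, 16.9 and 14.9 CPM on plastic at 250 nM, with no overlap. The 100 nM libraries had 10.5, 25.7 and 21.96 CPM on gel and 59.4, 20.9 and 20.7 CPM on plastic, which overlap. Its difference over both doses was -0.82 ± 0.32 (log2, SE; edgeR adjusted p = 0.275), and the highest value belongs to replicate 1 of plastic at 100 nM, a library that stood apart. SLC20A2 shares its locus with SMIM19 on the opposite strand, and the strand setting of the counting is not given. Together the 2 phosphate carriers summed to 288 ± 8.34 TPM on gel and 185 ± 23.7 TPM on plastic at 250 nM, and to 390 ± 65.3 TPM on gel and 124 ± 16.9 TPM on plastic at 100 nM (SD, n = 3).

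SLC6A15 (ENSG00000072041; chr12:84859488-84913615, minus strand), a sodium-dependent importer of branched-chain and other neutral amino acids best known from neurons, had the largest called fold. It had 23.8, 15.1 and 8.85 CPM on gel and 7.45, 3.29 and 6.68 CPM on plastic at 250 nM. With 100 nM there were 32.3, 20.5 and 22.7 CPM on gel and 5.07, 1.08 and 3.32 CPM on plastic. Groups did not overlap at either dose, though the nearest libraries at 250 nM were close. The difference was 2.21 ± 0.35 (log2, SE) over both doses, a fold of 4.62 (edgeR adjusted p = 0.00800), with 2.97 ± 0.48 at 100 nM (adjusted p = 0.0229) and 1.45 ± 0.51 at 250 nM (adjusted p = 0.342). The call over both doses held in 21 of 22 settings and was lost on log2(TPM + 1), where the log2 value was 1.61 (limma adjusted p = 0.0567).

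SLC16A6 (ENSG00000108932; chr17:68267026-68291267, minus strand), a member of the monocarboxylate family that exports ketone bodies in zebrafish liver, had 52.5, 40.3 and 34.6 CPM on gel and 23.6, 18.3 and 16.9 CPM on plastic at 250 nM. At 100 nM it had 145, 40.7 and 50.9 CPM on gel and 19.8, 11.6 and 14.6 CPM on plastic. Groups did not overlap at either dose, and replicate 1 of gel at 100 nM was far above the other libraries. The difference was 1.74 ± 0.30 (log2, SE) over both doses, a fold of 3.34 (edgeR adjusted p = 0.0152), with 2.36 ± 0.41 at 100 nM (adjusted p = 0.0332) and 1.12 ± 0.43 at 250 nM (adjusted p = 0.381). Without that library the value at 100 nM was 1.57 (adjusted p = 0.0719) and the value over both doses 1.35 (adjusted p = 0.00654). The call over both doses held in 18 of 22 settings. It was lost without replicate 2 of plastic at 100 nM, without replicate 2 or replicate 3 of plastic at 250 nM, and on log2(TPM + 1), with adjusted p up to 0.0577 among the left-out libraries. ARSG lies on the opposite strand of the same locus with 424 counts in all.

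At 100 nM alone the 3 calls were less steady. SLC20A1 was called in 16 of 23 settings, SLC6A15 in 13 and SLC16A6 in 12, and none of the members was called when any replicate of plastic at 100 nM, replicate 3 of gel at 100 nM or replicate 3 of plastic at 250 nM was left out. The log2 values without a library stayed at 1.38 to 1.71 for SLC20A1, 2.56 to 3.51 for SLC6A15 and 1.57 to 2.67 for SLC16A6.

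A further 5 members did not overlap between gel and plastic at either dose and kept their direction, which makes 6 higher on gel (4.76% of members, against 1.24% of all tested genes) and 2 lower (1.59%, against 1.94%). SLC35F3 (ENSG00000183780; chr1:233904933-234324516, plus strand) had 6.61, 10.2 and 6.32 CPM on gel and 0.414, 5.63 and 3.14 CPM on plastic at 250 nM. The 100 nM libraries had 4.54, 4.40 and 9.84 CPM on gel and 2.14, 1.24 and 0.317 CPM on plastic. Its level is low, with 1 to 69 counts in a library, and the difference over both doses was 1.82 ± 0.50 (log2, SE; edgeR adjusted p = 0.111). SLC38A5 (ENSG00000017483; chrX:48458537-48470256, minus strand), an importer of glutamine, histidine and glycine, had 7.60, 5.34 and 9.69 CPM on gel and 3.31, 4.22 and 2.36 CPM on plastic at 250 nM. With 100 nM there were 3.99, 5.91 and 5.42 CPM on gel and 3.74, 1.86 and 2.37 CPM on plastic, with a difference of 1.07 ± 0.30 over both doses (log2, SE; edgeR adjusted p = 0.130). SLC33A1, which carries acetyl-CoA into the endoplasmic reticulum, averaged 29.9 ± 1.32 CPM on gel and 25.8 ± 1.22 CPM on plastic at 250 nM, and 37.7 ± 3.62 CPM on gel and 31.6 ± 1.63 CPM on plastic at 100 nM (SD, n = 3). Its difference was small, at 0.23 ± 0.13 (log2, SE; edgeR adjusted p = 0.474).

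Lower on gel without a call were SLC2A1 and SLC38A2. SLC2A1, which brings in glucose, had 148, 236 and 234 CPM on gel and 246, 329.5 and 341 CPM on plastic at 250 nM. At 100 nM it had 127, 190.0 and 169 CPM on gel and 324, 226 and 198 CPM on plastic. The closest libraries differed by little, and the difference over both doses was -0.60 ± 0.18 (log2, SE; edgeR adjusted p = 0.148). The highest 100 nM value and the lowest 250 nM value of SLC2A1 belong to the libraries that stood apart. Without both of them its difference over both doses was -0.39. SLC38A2 had 867, 899.7 and 806 CPM on gel and 1112, 1274.5 and 1139 CPM on plastic at 250 nM. The 100 nM libraries had 611, 595 and 622 CPM on gel and 661, 649.9 and 781 CPM on plastic, so that the gap was wider at 250 nM. The difference was -0.32 ± 0.11 over both doses and -0.45 ± 0.16 at 250 nM (log2, SE; edgeR adjusted p = 0.218 and 0.340).

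SLC16A3 (ENSG00000141526; chr17:82228397-82261129, plus strand), the most abundant member in TPM, was not called but stood higher on gel at 250 nM. It had 256, 147 and 169 CPM on gel and 115, 87.3 and 94.3 CPM on plastic at 250 nM, and 218, 184 and 213 CPM on gel and 179, 163 and 185 CPM on plastic at 100 nM. Groups did not overlap at 250 nM and overlapped narrowly at 100 nM. The difference was 0.95 ± 0.22 at 250 nM (log2, SE; edgeR adjusted p = 0.217), 0.22 ± 0.21 at 100 nM (adjusted p = 0.784) and 0.59 ± 0.15 over both doses (adjusted p = 0.0899). Without replicate 1 of gel at 250 nM, its highest library, the value at 250 nM was 0.66. CSNK1D lies on the opposite strand of its locus with 3176 counts in all, against 9781 for SLC16A3.

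**Figure D2:**
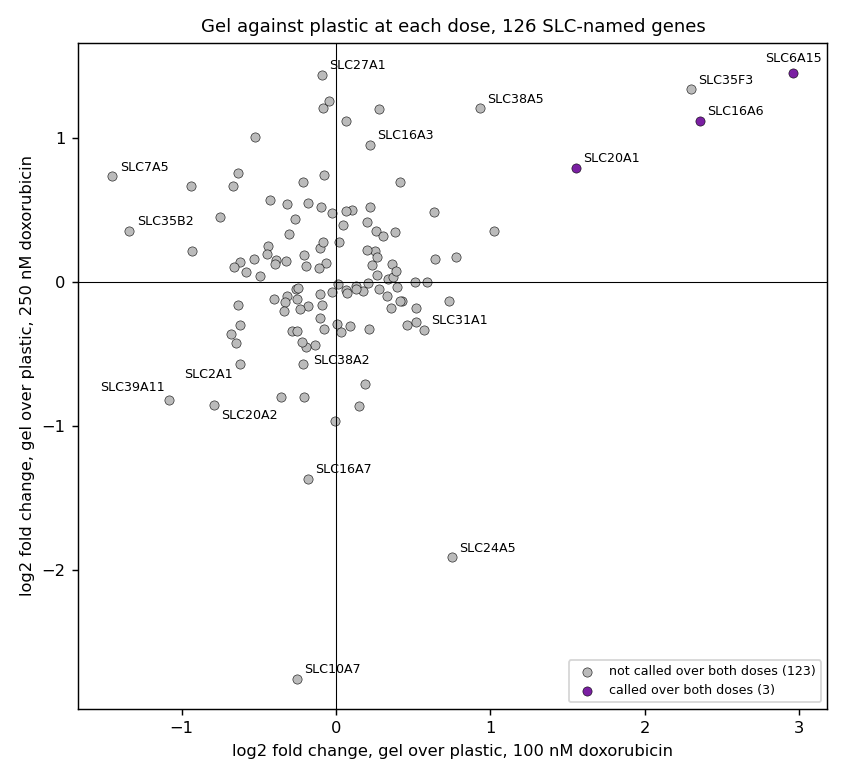
Fitted log2 fold change of gel over plastic at 250 nM (vertical axis) against that at 100 nM (horizontal axis) for the 126 SLC-named genes, which use different libraries at the 2 doses. SLC6A15, SLC16A6 and SLC20A1, called over both doses, lie with SLC35F3 at the upper right, and most other members lie near the centre.

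Most carriers differed little between the substrates. Over both doses 102 of 126 members had a log2 difference within 0.5 of zero, 5 were higher on gel by 1 or more and 1 was lower by 1 or more. The median over members was 0.04, against 0.00 over all tested genes after rounding. At 250 nM the medians were 0.06 for members and -0.02 for all genes, and at 100 nM they were -0.07 and -0.01. The sign of the difference was the same at both doses for 63 of 126 members, with 31 higher and 32 lower on gel at either dose. Beside the calls, the larger values over both doses among members of at least 5 CPM were not called. They were higher on gel for SLC35E4 at 0.74 and SLC35F2 at 0.69, which carry unsettled substrates, for SLC35C2 at 0.60 and for SLC22A18, an organic cation carrier, at 0.59. Lower on gel were SLC39A11, a zinc carrier, at -0.95, SLC16A7, a high-affinity lactate and pyruvate carrier, at -0.78, SLC8A1, the sodium-calcium exchanger, at -0.54 and SLC16A4 at -0.52. Further down came SLC35B2, which brings the sulfate donor into the Golgi, at -0.49 and SLC36A1, a proton-coupled amino acid carrier of lysosomes, at -0.46. The edgeR adjusted p of these 10 was 0.253 to 0.759. DUSP18 lies on the opposite strand of the SLC35E4 locus with 720 counts in all, against 419 for SLC35E4. For SLC22A18 and SLC35C2 the highest of all libraries was replicate 1 of gel at 250 nM, which stood apart. SLC22A18 had 18.5, 3.88 and 2.53 CPM on gel and 4.55, 3.29 and 3.93 CPM on plastic at 250 nM. Without that library its value over both doses was -0.12, and at 250 nM it was -0.32, so that its direction turned. SLC35C2 had 37.3, 13.1 and 16.4 CPM on gel and 13.7, 7.98 and 6.68 CPM on plastic at 250 nM, and without that library its value over both doses was 0.29. Without the same library SLC16A7 had -0.45 and SLC36A1 -0.30 over both doses. SLC35B2 had -0.05 without replicate 1 of plastic at 100 nM and 0.10 without both libraries that stood apart, so that its direction also turned.

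**Figure D3:**
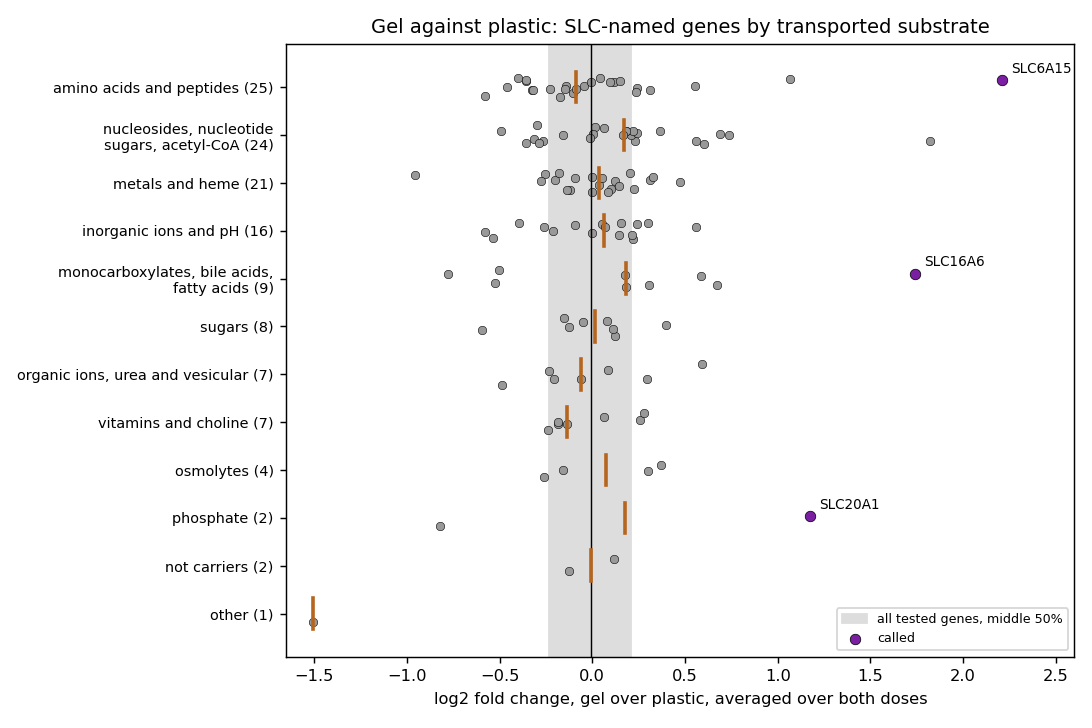
Fitted log2 fold change of gel over plastic, averaged over both doses, for each SLC-named gene by class of carried substrate, with the class median as a bar and the middle 50% of all tested genes in grey. Medians of the classes of 2 or more genes lay between -0.14 and 0.18, and the called genes SLC6A15, SLC16A6 and SLC20A1 belong to 3 different classes.

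By class, the calls were spread. Of 25 amino acid and peptide carriers, SLC6A15 was called over both doses and 10 had a positive difference, with a median of -0.09. Among 24 nucleotide sugar and related carriers none was called and 16 were positive, with a median of 0.17. Among 21 metal carriers none was called, 11 were positive and the median was 0.03. The 9 monocarboxylate and fatty acid carriers had SLC16A6 called, 6 positive and a median of 0.18, and the 8 sugar carriers had none called, 4 positive and a median of 0.02. None of the 16 inorganic ion carriers was called, 9 were positive and the median was 0.06. The summed TPM of sugar carriers was 223 ± 23.3 on gel and 286 ± 19.9 on plastic at 250 nM, and 169.5 ± 29.5 on gel and 216 ± 45.6 on plastic at 100 nM (SD, n = 3). For monocarboxylate and fatty acid carriers it was 439 ± 166 on gel and 277 ± 33.4 on plastic at 250 nM, and 548 ± 34.4 on gel and 446 ± 51.9 on plastic at 100 nM. SLC16A3 made up most of that sum, with 382 ± 172 TPM on gel and 228 ± 33.5 TPM on plastic at 250 nM (SD, n = 3). The class sums on gel at 250 nM were 629, 315 and 374 TPM, of which the highest is that of replicate 1, a library that stood apart.

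Lists of carriers under a known control gave no call between the substrates at either dose or over both. Of all tested genes 0.754% were called over both doses, 0.227% at 100 nM and 0.00811% at 250 nM. The absence of calls in lists this short is therefore not a result about them. Among transporters known as targets of ATF4, the transcription factor of the amino acid response, 6 of 7 were members. Their median over both doses was -0.20, and 1 of 6 was positive. SLC7A5, the large neutral amino acid exchanger of that list, had 27.4, 12.6 and 11.4 CPM on gel and 11.6, 10.3 and 9.43 CPM on plastic at 250 nM. With 100 nM there were 3.63, 10.6 and 10.98 CPM on gel and 49.5, 8.21 and 11.6 CPM on plastic, and its highest values were those of the 2 libraries that stood apart. The 3 transporters known to be induced by hypoxia, SLC2A1, SLC2A3 and SLC16A3, did not share a direction, with a median of -0.13. Tonicity-induced carriers (2 members) had a median of -0.21 and lysosomal carriers (6 members) of -0.19. Of 38 partner genes listed, among them the sodium pump, the chaperones of monocarboxylate carriers, SLCO carriers, metallothioneins, iron-handling genes and nutrient-sensing transcription factors, 21 were tested and 0 were called between gel and plastic in these comparisons. Beside the same shares of all tested genes, that count is not a result about the partner genes either.

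Whether the substrate difference itself depended on the dose was tested for each gene, and 0 of 12329 genes were called (0%), members included. An unadjusted p under 0.05 was found for 10 members (7.94%), against 6.32% of all genes. SLC20A1, SLC6A15 and SLC16A6 had differences of -0.77 ± 0.34, -1.52 ± 0.69 and -1.24 ± 0.58 between the log2 fold change at 250 nM and that at 100 nM (SE; edgeR adjusted p = 0.750 for each). SLC31A1 (ENSG00000136868; chr9:113221562-113264492, plus strand), the high-affinity copper importer, was the 1 member of 126 (0.794%) whose groups did not overlap at either dose in opposite directions, against 0.568% of all tested genes. It had 71.0, 85.9 and 77.5 CPM on gel and 95.2, 86.8 and 112.7 CPM on plastic at 250 nM, with gel lower and the nearest libraries at 85.9 CPM on gel and 86.8 CPM on plastic. At 100 nM it had 89.8, 75.2 and 78.6 CPM on gel and 56.0, 47.2 and 60.5 CPM on plastic, with gel higher.

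The higher dose was set against the lower dose on each substrate, with the reservation given above on depth and library set. On gel 16 members were called between 250 and 100 nM (12.7%, against 13.8% of all tested genes), 8 higher (6.35%, against 6.91%) and 8 lower at 250 nM (6.35%, against 6.90%). On plastic 18 members were called (14.3%, against 8.52% of all tested genes), 11 higher (8.73%, against 4.04%) and 7 lower (5.56%, against 4.48%). The doses did not overlap on gel for 24 members higher at 250 nM (19.0%, against 16.5% of all genes) and 17 lower (13.5%, against 19.3%). On plastic they did not overlap for 19 members higher (15.1%, against 16.4%) and 23 lower (18.3%, against 19.3%). The median over members was 0.10 on gel, against -0.02 over all tested genes, and 0.00 on plastic, against -0.04. Called on both substrates were 6 members, or 37.5% of the calls on gel and 33.3% of those on plastic. They are 4.76% of members, against 4.75% of all tested genes called on both in the same direction. SLC35B4, SLC35E2B, SLC37A3 and SLC52A2 were higher and SLC16A4 and SLC2A13 lower at 250 nM. Of the calls on gel 15 of 16 had the same sign on plastic, and of the calls on plastic 17 of 18 had the same sign on gel. Over all genes the shares were 96.8% of calls on gel and 97.1% of calls on plastic. Called or not, 79 of 126 members (62.7%) had the same sign on both substrates, against 72.7% of all tested genes. For the settings that follow, the share of all tested genes called is not given, so their counts are not a result about the carriers alone. Without the 2 libraries that stood apart, 14 members were called on gel, 10 of them among those above, and 26 on plastic, 17 of them among those above. Without replicate 1 of gel at 100 nM 4 were called on gel, and without replicate 2 or replicate 3 of plastic at 250 nM 1 member was called on plastic. Those of SLC16A4 on either substrate and of SLC26A11 and SLC52A2 on gel were called in 23 of 23 settings, and every other dose call was lost when at least 1 library was left out, with edgeR adjusted p up to 0.198.

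**Figure D4:**
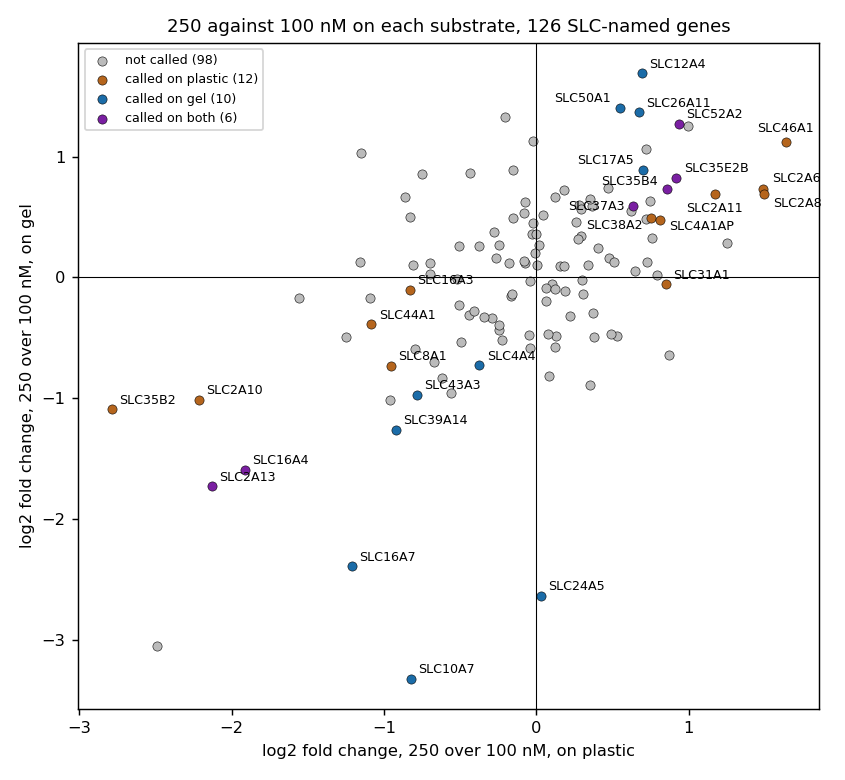
Fitted log2 fold change of 250 over 100 nM on gel (vertical axis) against that on plastic (horizontal axis) for the 126 SLC-named genes, coloured by where they were called. SLC52A2, SLC35E2B, SLC35B4 and SLC37A3 were called higher and SLC16A4 and SLC2A13 lower on both substrates, and SLC24A5 was called on gel while its value on plastic was 0.03.

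**Figure D5:**
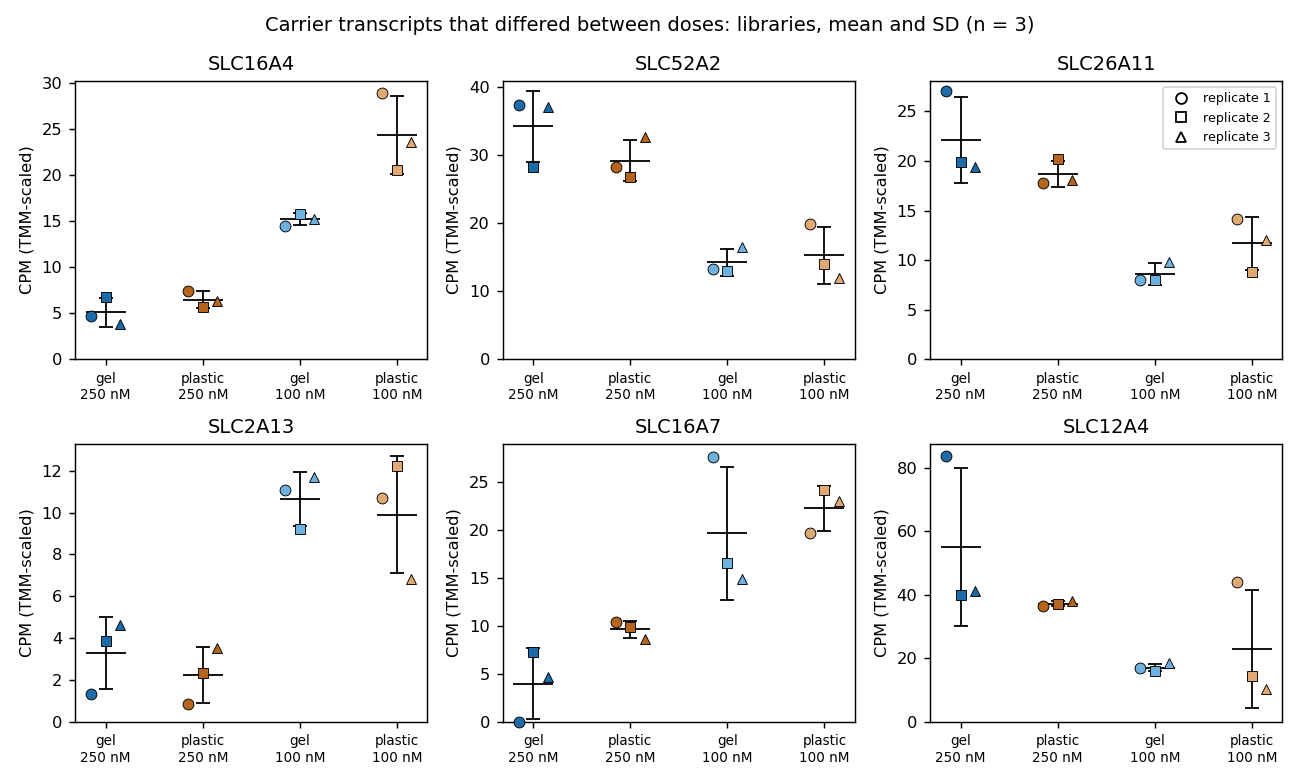
CPM of 6 SLC genes in each library, grouped as gel and plastic at 250 nM and gel and plastic at 100 nM, with the group mean and SD (n = 3). SLC16A4, SLC2A13 and SLC16A7 stood lower and SLC52A2 and SLC26A11 higher at 250 nM on either substrate, and the 2 highest libraries of SLC12A4 are the ones that stood apart.

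SLC16A4 (ENSG00000168679; chr1:110362848-110391082, minus strand), a monocarboxylate family member whose substrate is not settled, was the steadiest dose difference. On gel it had 4.63, 6.80 and 3.79 CPM at 250 nM and 14.5, 15.8 and 15.3 CPM at 100 nM. On plastic it had 7.45, 5.63 and 6.28 CPM at 250 nM and 28.96, 20.6 and 23.6 CPM at 100 nM. No library of one dose overlapped the other. It fell by 1.59 on gel and by 1.91 on plastic on the log2 scale (SE 0.28 and 0.27; edgeR adjusted p = 0.00576 and 0.00380), and both calls held in 23 of 23 settings. SLC16A3 and SLC16A7 of the same family were called on a substrate each. SLC16A3 fell by 0.83 ± 0.21 on plastic (edgeR adjusted p = 0.0318) and its value on gel was -0.10 ± 0.21 (adjusted p = 0.774). SLC16A7 had 0, 7.28 and 4.64 CPM at 250 nM and 27.6, 16.5 and 14.8 CPM at 100 nM on gel, with a fitted log2 value of -2.39 ± 0.61 (edgeR adjusted p = 0.0221). The value of 0 belongs to replicate 1 of gel at 250 nM, which stood apart, and without which the value was -1.75 (adjusted p = 0.0120). On plastic SLC16A7 had 10.3, 9.86 and 8.64 CPM at 250 nM and 19.6, 24.2 and 23.0 CPM at 100 nM, also without overlap, and was not called (edgeR adjusted p = 0.175).

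SLC52A2, a riboflavin importer, was higher at 250 nM on either substrate. On gel it had 37.3, 28.2 and 37.1 CPM at 250 nM and 13.2, 12.9 and 16.4 CPM at 100 nM. On plastic it had 28.1, 26.8 and 32.6 CPM at 250 nM and 19.9, 13.9 and 11.9 CPM at 100 nM. Groups did not overlap, and the log2 values were 1.27 ± 0.24 on gel and 0.93 ± 0.24 on plastic (SE; edgeR adjusted p = 0.00742 and 0.0318), with the call on gel in 23 and that on plastic in 15 of 23 settings. SLC46A1, the proton-coupled folate importer, rose on plastic by a log2 value of 1.64 ± 0.44 (edgeR adjusted p = 0.0368). SLC44A1, a choline carrier, fell by 1.08 ± 0.26 there (edgeR adjusted p = 0.0226).

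Of 8 sugar carriers 2 were called on gel and 5 on plastic, against 13.8% and 8.52% of all tested genes. SLC2A6, a hexose carrier of lysosomes, rose by 1.49 ± 0.38, SLC2A8, an intracellular hexose carrier, by 1.49 ± 0.36, SLC2A11 by 1.17 ± 0.24 and SLC37A3 by 0.64 ± 0.16 on the log2 scale (SE; edgeR adjusted p = 0.0137 to 0.0310). SLC2A10 fell by 2.22 ± 0.48 (edgeR adjusted p = 0.0152), with 4.97, 2.82 and 3.93 CPM at 250 nM and 28.6, 12.4 and 13.9 CPM at 100 nM. Its highest value is that of replicate 1 of plastic at 100 nM, which stood apart. The call of SLC2A10 held in 19 of 23 settings and was lost without that library, among others. On gel 2 of 8 were called, SLC50A1 with 1.41 ± 0.39 and SLC37A3 with 0.59 ± 0.16 (SE; edgeR adjusted p = 0.0308 and 0.0286). SLC50A1 had 64, 22 and 20 counts on gel at 250 nM, the highest in replicate 1, which stood apart. Its call held in 14 of 23 settings and was lost without that library, among others. The class median was 0.63 on plastic and 0.64 on gel, with 7 of 8 positive on either. The abundant SLC2A1 was not called, at 0.29 ± 0.25 on plastic and 0.35 ± 0.25 on gel (SE; edgeR adjusted p = 0.497 and 0.369). SLC2A13, which carries myo-inositol with protons, had 1.32, 3.88 and 4.64 CPM at 250 nM and 11.1, 9.21 and 11.7 CPM at 100 nM on gel. On plastic it had 0.828, 2.35 and 3.53 CPM at 250 nM and 10.7, 12.2 and 6.81 CPM at 100 nM. Its groups did not overlap, and it fell by 1.73 ± 0.48 on gel and by 2.13 ± 0.51 on plastic (log2, SE; edgeR adjusted p = 0.0312 and 0.0229), though 2 to 11 counts stood behind each 250 nM value.

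Of 16 inorganic ion carriers 4 were called on gel, 2 of them higher, and 1 was called lower on plastic, against 13.8% and 8.52% of all tested genes. Whether the substrates differ in this was not tested. SLC26A11 (ENSG00000181045; chr17:80219699-80253500, plus strand), a sulfate and chloride carrier, had 27.1, 19.9 and 19.4 CPM at 250 nM and 7.98, 7.97 and 9.84 CPM at 100 nM on gel. The groups did not overlap, with a log2 value of 1.37 ± 0.25 (edgeR adjusted p = 0.00697) that was called in 23 of 23 settings. On plastic it had 17.8, 20.2 and 18.1 CPM at 250 nM and 14.1, 8.83 and 12.03 CPM at 100 nM, also without overlap, with a log2 value of 0.67 ± 0.25 that was not called (edgeR adjusted p = 0.110). Its locus is shared with SGSH on the opposite strand, which had 657 counts against 711. SLC12A4 (chr16:67943474-67969601, minus strand), an exporter of potassium with chloride, had 83.6, 39.8 and 41.3 CPM at 250 nM and 16.9, 15.9 and 18.4 CPM at 100 nM on gel, a log2 value of 1.69 ± 0.45 (edgeR adjusted p = 0.0260). Its highest library was replicate 1 of gel at 250 nM, without which the value was lower, at 1.22, and was not called (adjusted p = 0.0976). On gel SLC4A4, a cotransporter of sodium and bicarbonate, fell by 0.73 ± 0.20, and SLC24A5, an exchanger of calcium and potassium for sodium known from melanosomes, fell by 2.64 ± 0.80 at a level of 1.75 to 3.44 counts in each gel library at 250 nM (edgeR adjusted p = 0.0289 and 0.0442). SLC24A5 was called in 11 of 23 settings and reached an adjusted p of 0.146 without replicate 1 of gel at 100 nM. MYEF2 lies on the opposite strand of its locus with 710 counts against 217. On plastic the sodium-calcium exchanger SLC8A1 fell by 0.95 ± 0.28 (edgeR adjusted p = 0.0480).

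Over all tested genes 13.8% were called between the doses on gel and 8.52% on plastic. Of 25 amino acid carriers 1 was called on gel, as lower, and 1 on plastic, as higher. Of 21 metal carriers 1 was called on gel, as lower, and 1 on plastic, as higher. Of 24 nucleotide sugar and related carriers 2 were called on gel, both higher, and 3 on plastic, 2 of them higher. SLC38A2 was higher at 250 nM on plastic by 0.75 ± 0.16 (log2, SE; edgeR adjusted p = 0.0142), and on gel its value was 0.49 ± 0.16 (adjusted p = 0.0536). SLC43A3 fell by 0.97 ± 0.29 on gel (edgeR adjusted p = 0.0380). SLC31A1 rose on plastic by 0.85 ± 0.18 (edgeR adjusted p = 0.0144) and had -0.06 ± 0.18 on gel. SLC39A14, an importer of zinc, iron and manganese, fell by 1.26 ± 0.38 on gel (edgeR adjusted p = 0.0427), where replicate 1 at 100 nM had 59.1 CPM against 21.6 and 19.7 CPM, and without that library the value was -0.56 and was not called (adjusted p = 0.198). SLC35B4, a carrier of UDP-xylose and UDP-N-acetylglucosamine, had log2 values of 0.73 ± 0.22 on gel and 0.86 ± 0.22 on plastic, and SLC35E2B had 0.82 ± 0.23 and 0.92 ± 0.24 (SE; edgeR adjusted p = 0.0297 to 0.0390). SLC35E2B has a near-identical copy, SLC35E2A, so that the split of reads between them is uncertain. SLC35B2 fell by 2.78 ± 0.70 on plastic (edgeR adjusted p = 0.0286), with 33.9 CPM in the library of plastic at 100 nM that stood apart and 11.6 and 7.44 CPM in the others, and without that library the value was -1.88 and was not called (edgeR adjusted p = 0.101). SLC17A5 was higher on gel by 0.89 ± 0.26 (edgeR adjusted p = 0.0360). SLC10A7, without a settled substrate, had 0, 3 and 0 counts in the gel libraries at 250 nM and 34, 27 and 24 counts in those at 100 nM, and was called lower on gel (edgeR adjusted p = 0.0367). SLC4A1AP, no carrier, was called higher on plastic, with a log2 value of 0.81.

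Among the 21 tested partner genes, 5 were called between the doses on gel and 5 on plastic (23.8%), against 13.8% and 8.52% of all tested genes. ATP1B3, a subunit of the sodium pump, had log2 values of 0.75 on gel and 0.98 on plastic (edgeR adjusted p = 0.0184 and 0.00930). ATF4 had 1.35 on gel and 1.20 on plastic (edgeR adjusted p = 0.0161 and 0.0327). NFAT5, the factor of the tonicity response, had -1.86 on gel and -1.14 on plastic (edgeR adjusted p = 0.00654 and 0.0480). Of the 6 ATF4 target carriers, SLC38A2 on plastic was the sole call, and the list's median was 0.30 on gel and -0.48 on plastic. The tonicity-induced carriers SLC5A3 and SLC6A6 were not called, with list medians of -0.05 on gel and 0.00 on plastic. The ferritin genes FTH1 and FTL were called on gel, with log2 values of 0.54 and 0.81 (edgeR adjusted p = 0.0473 and 0.0178). MLXIP and MITF, transcription factors of glucose sensing and of lysosomal genes, were called on plastic, with log2 values of 0.92 and 0.69 (edgeR adjusted p = 0.0472 and 0.0413).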

How the data were processed

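Polyadenylated RNA of 12 IMR90 libraries was analysed, in 4 groups of 3 taken from the titles. Tools named in the submitters' processing notes are Trimmomatic, also STAR, RSEM, and DESeq2 in version 1.36.0, with GRCh38 as build. For other versions, the annotation, the strand setting and any collapse by molecular identifiers, the sources used here give nothing. Per the file headers, each deposited table holds an expected count per gene, the RSEM estimate of its reads. Per the file headers it also holds TPM, which the authors' RSEM run scaled for transcript length and library total. Of 61541 identifiers, 61369 matched the symbol table and 58366 matched GENCODE 29, which gave coordinates and biotypes.

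Expected counts were rounded and fitted in R 4.3.3 with edgeR 4.0.16 (filterByExpr, TMM, quasi-likelihood test, 4 group means, 8 residual degrees of freedom), which left 12329 genes and gave a common coefficient of variation of 0.299. In each of 6 comparisons the Benjamini-Hochberg adjustment ran over all tested genes, and an adjusted p under 0.05 was called. The script was tested on simulated counts. Alternatives used DESeq2 1.42.0, limma 3.58.1 and others named at the end, 23 settings in all. CPM carry the SD of 3 libraries. Named were members called in any comparison, the most abundant of each class, the 8 largest rises and 8 largest falls over both doses among members of at least 5 CPM, the neighbours of the count minimum, and members whose groups did not overlap at both doses. Some named by the rule were left out for length. The members, classes, lists and tests were chosen with earlier results of these data known.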

Additional observations from a re-analysis of the deposited data

Results flagged for a closer look

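SLC31A1, the copper importer, was singled out because its substrate difference ran in opposite directions at the 2 doses, with every gel library below every plastic library at 250 nM and above every plastic library at 100 nM. That is 1 of 126 members (0.794%), against 0.568% of all tested genes, and the nearest libraries at 250 nM were 85.9 CPM on gel and 86.8 CPM on plastic. The log2 fold change of gel over plastic was -0.33 ± 0.18 at 250 nM and 0.57 ± 0.18 at 100 nM (SE). The difference between them was -0.90 ± 0.25 (SE), with an unadjusted p of 0.00320 and an adjusted p of 0.750 in edgeR's quasi-likelihood test, so it was not called. CDC26 overlaps the locus on the opposite strand, and its part in the difference was not tested.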

How the results depend on the processing

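The counts of members called depended on the tool and on the libraries. The share of all genes called in each setting is not given beside them, so a shift may not be particular to the carriers. At 100 nM the count of 3 became 5 with no low-count filter, 1 on log2(TPM + 1) with limma-trend and 0 with the libraries of that dose alone, and 0 to 3 when 1 library was left out. At 250 nM the count of 0 became 2 with no filter, 1 with DESeq2 (SLC16A3) and 2 with limma-voom and sample weights. Over both doses the count of 3 became 7 with no filter, 7 with DESeq2, 9 with limma-voom and 1 on log2(TPM + 1), and was 2 to 3 without 1 library. The dose dependence of the substrate difference gave 1 call (SLC7A5) with no filter and 0 otherwise. Between doses on plastic the count of 18 became 35 with limma-voom and 4 on log2(TPM + 1), and 1 to 27 without 1 library. On gel the count of 16 became 25 with limma-voom, 7 on log2(TPM + 1), 4 with the gel libraries alone and 4 to 17 without 1 library. SLC35B4 on gel changed sign on log2(TPM + 1), to -0.0208. The cause of these shifts was not tested, and some settings also used fewer libraries. Of the values of called members, 623 kept their call and direction, 253 lost the call and 1 changed sign. With the replicate number as a block, the counts were 3, 0, 3, 0, 18 and 15. Same-numbered samples deviated together in 8 of 18 pairs (r over 0.1, range -0.24 to 0.33). Pairs of different numbers ranged from -0.31 to 0.39. With 3 libraries a group these values cannot settle whether the numbers pair the samples. Size factors of DESeq2 type, left-out ribosomal DNA and mitochondrial genes and thinning to 250 nM depth kept each count within 1.5 times. Lower depth at 250 nM limits members of a few counts most.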
